A study of Mus musculus with 12 samples.

Results

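The genes described here were those whose RNA was at 50% of wild type or less when Scl was absent, at a like level when Lyl1 alone was absent, and near its SCL KO level when Lyl1 was absent as well. They were chosen on the measured values themselves. On group means of CPM (read counts relative to library size, normalised by the TMM method), a gene was kept when its wild-type mean was at least 5 CPM, its LYL1 KO/wild type ratio lay between 0.67 and 1.5, its SCL KO/wild type ratio was at most 0.5, and its DKO/SCL KO ratio lay between 0.67 and 1.5. This left 49 of the 15399 genes that passed a filter on low counts, out of 49671 genes in the table. RNA was sequenced from 12 mouse libraries in 4 groups of 3: wild type (WT), a Lyl1 knockout (LYL1 KO), an Scl knockout (SCL KO) and a double knockout of both genes (LYL1 SCL DKO, below DKO). All are labelled as RNA of pooled embryos at embryonic day 9.5, with no treatment and no transgene named. The labels do not give the strain, how the alleles were made, or how many embryos were pooled.

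Scl, whose gene symbol is Tal1, and Lyl1 are closely related basic helix-loop-helix transcription factors. They pair with E proteins, bind short DNA words called E-boxes, and are held by LIM-domain and adaptor proteins in a complex that often includes a GATA factor bound nearby. Scl is known for its need in the formation of the first blood cells of the embryo, and later in red cell and megakaryocyte maturation, while Lyl1 can carry some of this work in adult blood stem cells.

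Total counts per library were 24324685 to 29212443, and a library with no read of a gene still allows up to 3 counts of it, or 0.0936 to 0.131 CPM (counting error only). Tissue labels and markers differed: of 24 genes of embryo tissues outside blood and vessels, 5 reached 1 CPM in any library and 9 were at 0 in all of them, whereas all 44 megakaryocyte and platelet genes reached 1 CPM and together made up 117200 to 135600 CPM in WT. The libraries are therefore described here by their labels only. Principal component 2 (13.2% of the variance, beside 44.8% for component 1) placed WT 3, SCL KO 3, DKO 3 and all 3 LYL1 KO libraries on one side, and replicates 1 and 2 of the other groups on the other. No label names a batch, and no LYL1 KO library lay on the second side. In bulk RNA, fewer cells of a type and less RNA per cell cannot be told apart. The labels do not say that replicates came from separate litters, so p-values measure only the spread between these libraries.

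The targeted genes were read first. Tal1 is itself one of the 49 genes, so its place in the set shows only that the labels and the RNA go together. Tal1 (ENSMUSG00000028717, chr4:115056426-115071755 of GRCm38) was at 559, 643 and 513 CPM in WT and at 619, 542 and 575 CPM in LYL1 KO. It was at 118, 117 and 93.4 CPM in SCL KO and at 100, 100 and 77.7 CPM in DKO. The libraries with and without the Scl allele did not overlap, and 19.2% (SCL KO) and 16.2% (DKO) of the WT mean remained. Lyl1, which is not a member, was at a mean of 180.9 CPM in WT, 87.75 in LYL1 KO, 175.4 in SCL KO and 84.13 in DKO. So 48.5% of the WT level of Lyl1 RNA remained in LYL1 KO. A count per gene does not tell which exons these reads came from.

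The promoters are shown first, since the DNA before the starts is something that the choice of the 49 genes did not use. Start windows (250 bases before to 50 after, RefSeq, GRCm38.p6) were found for 38 of the 49 genes, and 1 start per gene, the most upstream listed, was searched on both strands. The words searched for E-boxes were CAGCTG, the common variant CAGGTG and the third form CAGATG. For GATA factors they were AGATAA and, as the other form, TGATAA. A further one was the spaced word (CTG, the end of the E-box CAGCTG, then 7, 8 or 9 bases of any kind, then GATA). The last were CCGGAAGT for ETS factors and, for Runx factors, TGTGGTT. Only windows free of annotated exon bases were considered for printing: 18 of the 38 met this. Of these, Tal1, Tfdp2, Cpa3 and Oasl2 are printed because they hold the spaced word, and Gata2 because it holds none of the words searched. All read 5′ to 3′ on the gene's own strand and end 1 base before the start, with matches to any of the words in capitals:
Tal1, chr4:115056176-115056425 (+): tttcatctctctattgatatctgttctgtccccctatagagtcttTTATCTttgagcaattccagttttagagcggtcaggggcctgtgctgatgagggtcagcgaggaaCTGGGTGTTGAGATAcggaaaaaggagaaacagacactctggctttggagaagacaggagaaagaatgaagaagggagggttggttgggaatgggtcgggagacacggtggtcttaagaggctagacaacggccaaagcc
Tfdp2, chr9:96258455-96258704 (+): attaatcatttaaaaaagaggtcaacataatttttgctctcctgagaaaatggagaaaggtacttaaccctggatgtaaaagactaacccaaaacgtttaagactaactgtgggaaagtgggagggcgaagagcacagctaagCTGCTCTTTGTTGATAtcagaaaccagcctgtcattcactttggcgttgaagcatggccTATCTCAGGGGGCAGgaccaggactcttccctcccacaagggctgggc
Cpa3, chr3:20242182-20242431 (-): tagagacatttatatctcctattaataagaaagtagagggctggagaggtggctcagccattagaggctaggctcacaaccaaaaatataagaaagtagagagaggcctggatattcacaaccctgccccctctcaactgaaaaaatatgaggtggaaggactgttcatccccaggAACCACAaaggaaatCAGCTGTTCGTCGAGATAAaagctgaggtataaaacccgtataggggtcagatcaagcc
Oasl2, chr5:114896684-114896933 (+): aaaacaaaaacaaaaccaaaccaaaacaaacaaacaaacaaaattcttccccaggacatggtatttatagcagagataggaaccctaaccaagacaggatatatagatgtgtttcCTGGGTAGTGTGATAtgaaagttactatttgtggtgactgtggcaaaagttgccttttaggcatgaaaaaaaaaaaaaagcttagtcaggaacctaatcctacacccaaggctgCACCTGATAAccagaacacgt
Gata2, chr6:88193641-88193890 (+): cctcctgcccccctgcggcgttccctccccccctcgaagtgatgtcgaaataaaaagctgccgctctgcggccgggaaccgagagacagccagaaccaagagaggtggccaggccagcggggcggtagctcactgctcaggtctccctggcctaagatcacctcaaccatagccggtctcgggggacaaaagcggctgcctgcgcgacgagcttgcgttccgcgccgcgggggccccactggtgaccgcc
The window of Tfdp2 lies in an intron of the longer gene model, before an internal start. Those of Tal1, Cpa3 and Gata2 adjoin the gene's first base in the gene models, and that of Oasl2 leaves a gap of 2 bases.

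The spaced word with 8 free bases stood in 6 of the 38 windows (15.8%), those of Aim2, Cpa3, Hemgn, Oasl2, Tal1 and Tfdp2. Among the 10631 tested genes with a window the share was 1.78%, and among all 27025 windows it was 2.35%. With 9 free bases the word stood in 3 windows (7.89%), of Cbfa2t3, Lgals3bp and Tfdp2, beside 1.68% of the tested genes. With 7 free bases it stood in that of Spa17 (2.63%, beside 1.56%). Any of the 3 spacings occurred in 9 of 38 windows (23.7%), beside 4.93% of tested genes and 7.22% of all windows. In Tal1 the match covered bases -140 to -126 counted from the start, in Hemgn -23 to -9, in Aim2 -88 to -74, and in Cbfa2t3 -117 to -102. Not all of the 9 windows are free of exons. Before the start, annotated exons cover 250 bases in Cbfa2t3 and Spa17, 133 in Lgals3bp, 53 in Hemgn and 33 in Aim2. The windows of Hemgn and Aim2 lie inside the gene models. The 9 also include Tal1, the targeted gene, and Cpa3, whose place in the set rests on WT 3. Some of these matches overlap others: in Cpa3 the spaced word shares bases with a CAGCTG and an AGATAA, and in Hemgn with a TGATAA. These are letter matches in short windows, and no binding was measured.

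Simple words were closer to their background. An E-box of any of the 3 kinds stood in 44.7% of the members' windows, in 37.3% of those of tested genes and in 44.0% of all. A GATA word stood in 18.4%, 10.4% and 18.9%. In the same order AGATAA alone stood in 15.8%, 6.58% and 11.4%, and TGATAA in 7.89%, 4.28% and 9.23%. The ETS word was in 5.26% of the members' windows and 8.18% of those of tested genes, and the Runx word in 2.63% and 3.89%. The median GC content was 63.0% for members and 60.7% for tested genes. Sardh, the member with the lowest SCL KO/WT ratio, held 2 CAGCTG words, at -131 to -126 and -122 to -117, and a CAGATG at -20 to -15, in a window of which 67 bases lie in its annotated exons.

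The set was a minority of what was low without Scl. Of 9895 genes with a WT mean of at least 5 CPM, 222 (2.24%) were at 50% of WT or less in SCL KO. LYL1 KO was within the limits for 169 of these, below them for 39 and above them for 14. Of the 169, 106 (62.7%) went below the lower limit in DKO against SCL KO, 49 (29%) stayed within the limits and are the members, and 14 (8.28%) were above the upper limit. Among those that left the set at these steps, Tmcc2, a coiled-coil membrane protein, had a DKO/SCL KO ratio of 0.316.

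As a description of the choice over the 48 members reported by name, the level in SCL KO was 5.31% to 49.7% of WT (median 42%). In DKO it was 5.24% to 72.9% of WT, and in LYL1 KO 67.2% to 140.1% (median 101%). Only 1 gene was at 10% of WT or less in SCL KO, 6 were over 10 and up to 25%, 14 over 25 and up to 40%, and 27 over 40 and up to 50%. Each of the 49 members kept a mean of at least 1 CPM in SCL KO, so no member was lost outright. The LYL1 KO mean lay above WT for 26 genes and below it for 23, and the DKO mean lay below SCL KO for 28 and above it for 21. Libraries of LYL1 KO and WT overlapped for 42 of the 49 and did not for 7 (15.9% of all genes tested had no overlap). Those of DKO and SCL KO also overlapped for 42 and did not for 7 (33.4% of all genes).

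**Figure D1:**
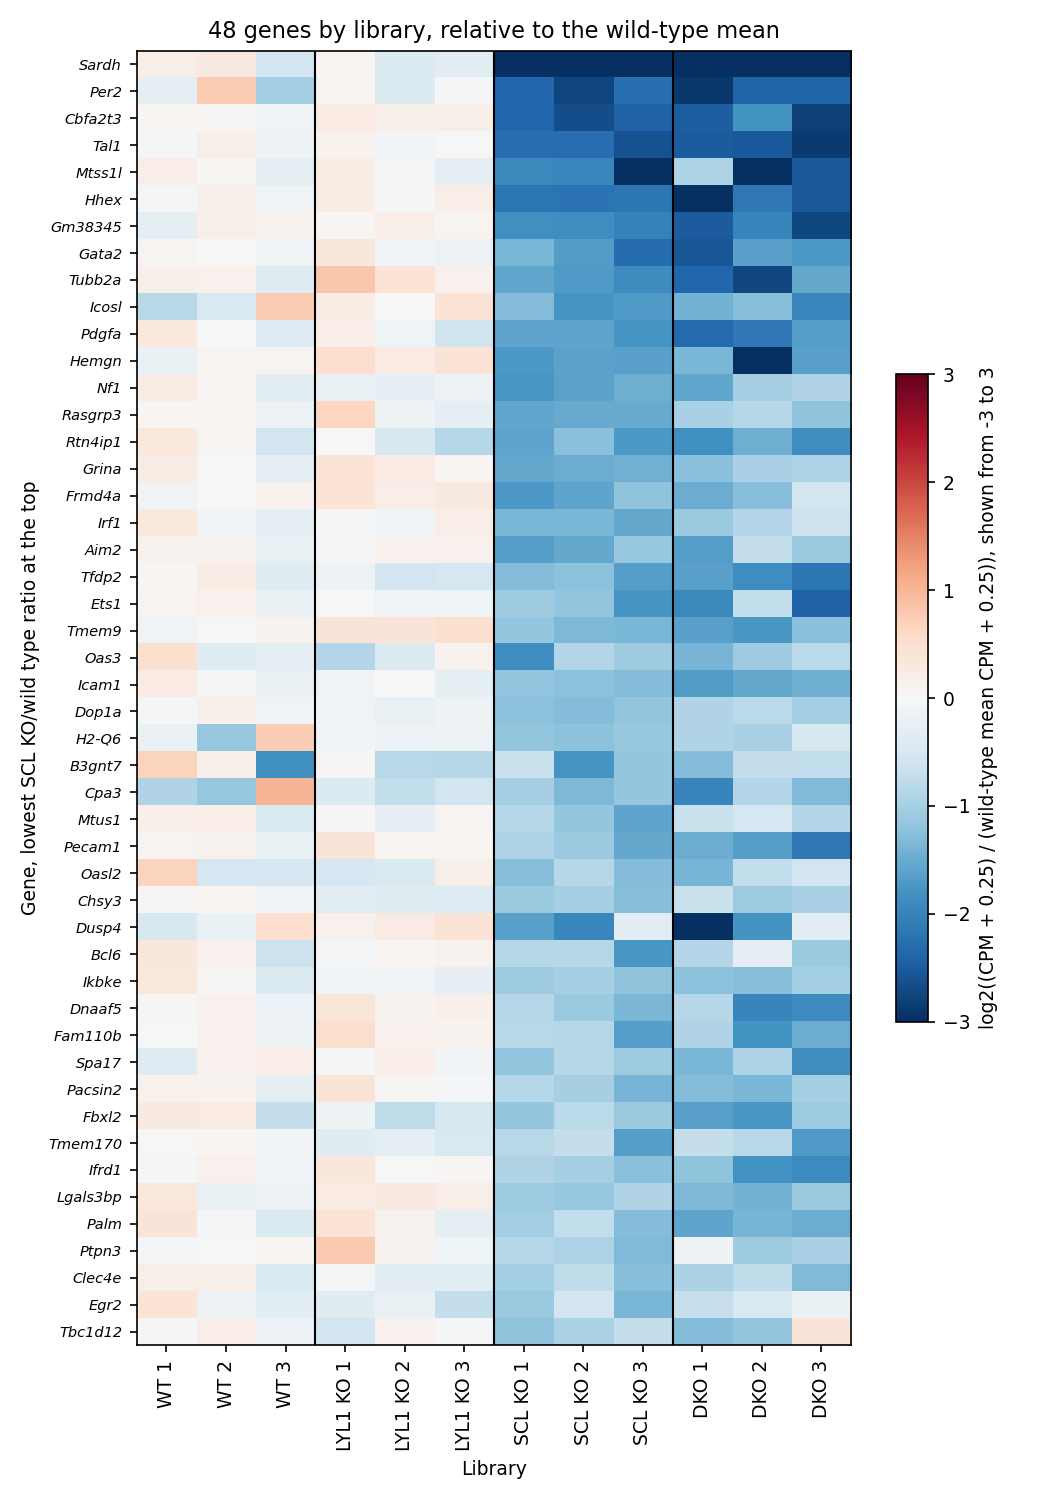
Level of each of 48 genes (rows, lowest SCL KO/WT ratio at the top) in each of the 12 libraries (columns), as the log2 ratio of CPM to the WT mean with 0.25 CPM added to both, shown from -3 to 3. The 6 SCL KO and DKO columns are blue for nearly all rows and the 6 WT and LYL1 KO columns are pale, with single-library exceptions such as Cpa3 in WT 3 and Tbc1d12 in DKO 3.

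Across all genes, edgeR's quasi-likelihood test with Benjamini-Hochberg adjustment at 0.05 called 2.73% lower in SCL KO than in WT, and 37 of the 49 members were among them. In DKO against LYL1 KO 17.9% were called lower, with 39 members. The choice used the 4 group means behind these and all further contrasts of this paragraph. So nothing is read from any count of members in it, by any method. For LYL1 KO against WT the same test called 0.0714% of genes and no member. At an unadjusted p under 0.05 it had 1230 genes, 3 of them members, while DESeq2's Wald test called 103 genes and limma-voom 8, in both cases with no member. For DKO against SCL KO it called 19.1% of genes and 4 members: Grina, Irf1 and Dop1a higher in DKO (8.37% of all genes were), and Ifrd1 lower (10.8%). With the replicate number as a block it called 6 members. Every SCL KO library lay below every WT library for 45 members (11.2% of all genes), and every DKO library below every LYL1 KO library, also for 45 (23.9%). Each library lacking Scl lay below all 6 that carry it for 41 members (6.67% of all genes).

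The first group by role is that of transcription factors and their partners, and it held the members closest to Scl itself (the grouping was made after the values were seen). Cbfa2t3, known as ETO2, is a corepressor held in the Scl complex. It was at 169, 167 and 151 CPM in WT, 193, 179 and 182 in LYL1 KO, 30.9, 25.3 and 29.7 in SCL KO, and 28.8, 46.8 and 22.9 in DKO. Its 6 libraries lacking Scl lay far below the others, DKO 2 was the highest among them, and the LYL1 KO libraries all lay above WT. The log2 change was -2.50 ± 0.21 (SE, n = 3) with Lyl1 present (SCL KO against WT) and -2.49 ± 0.21 without it (DKO against LYL1 KO).

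Gata2, a GATA factor of stem cells, progenitors and early megakaryocytes and mast cells, was at 85.2, 80.4 and 74.2 CPM in WT and 101, 75.4 and 70.5 in LYL1 KO. It was at 30.5, 24.8 and 15.8 CPM in SCL KO and 13.3, 25.6 and 24.2 in DKO. The 2 groups lacking Scl overlapped each other and stayed below both others, at 29.7% and 26.3% of WT. The log2 change was -1.75 ± 0.26 with Lyl1 and -1.97 ± 0.27 without it.

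Hhex, a homeobox factor of early blood, vessel and liver cells, had 45.3, 51.8 and 42.1 CPM in WT and 54.4, 45.6 and 52.9 CPM in LYL1 KO. In SCL KO it had 10.1, 9.85 and 10.2 CPM, the tightest values of any group for this gene, and in DKO 5.19, 10.2 and 7.8. The groups with and without Scl did not overlap, and the 2 lacking it did. The predicted gene model Gm38345 starts 154 bases from the start of Hhex on the opposite strand, without overlapping it (chr19:37432909-37434656 beside chr19:37434810-37440731). It had the same order of groups at a low level, with means of 6.21 CPM in WT, 6.73 in LYL1 KO, 1.47 in SCL KO and 0.994 in DKO.

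Ets1, an ETS factor of lymphoid and vessel cells, was at 37.7, 39 and 30.4 CPM in WT and 35.2, 33 and 32.8 in LYL1 KO. It was at 17, 15.5 and 10.3 CPM in SCL KO and 9.21, 21.1 and 6.49 in DKO. DKO 2 was above every SCL KO library, as for Cbfa2t3, yet below all libraries that carry Scl.

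Hemgn, hemogen, a nuclear protein of blood precursors known as a target of GATA1, was at 86.3, 105 and 106 CPM in WT and 141, 118 and 131 in LYL1 KO. It was at 30, 32.5 and 31.7 CPM in SCL KO and 38.1, 12.2 and 31.8 in DKO. All LYL1 KO libraries exceeded WT for this gene, and DKO 2 was its single lowest library. Per2, a repressor of the circadian clock, was at 8.37, 17.6 and 4.99 CPM in WT, 10.9, 7.76 and 9.95 in LYL1 KO, 1.78, 1.32 and 1.96 in SCL KO, and 1.17, 1.76 and 1.75 in DKO. The WT libraries of Per2 spread widely, while the 6 libraries lacking Scl stayed close together and below all of the others.

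Further regulators were Tfdp2, Ifrd1, Bcl6 and Egr2. Tfdp2, the partner of E2F factors, had means of 199 ± 39.8 CPM (SD, n = 3) in WT, 151 ± 25 in LYL1 KO, 76.4 ± 11.9 in SCL KO and 54.2 ± 9.76 in DKO. Ifrd1, a transcriptional coregulator, was at 188 ± 16.4, 207 ± 27.5, 91.2 ± 11.3 and 61.3 ± 17.2 CPM in the same order, and its DKO/SCL KO ratio of 0.672 was the one nearest the lower limit. Bcl6, a zinc-finger repressor, was at 18.5 ± 6.03 CPM in WT, 19.1 ± 1.04 in LYL1 KO, 8.55 ± 2.74 in SCL KO and 11.2 ± 3.51 in DKO. Egr2, an immediate early zinc-finger factor, stood at 6.5 ± 1.89, 4.8 ± 0.848, 3.21 ± 1.05 and 4.74 ± 0.851 CPM. Its DKO mean was 98.8% of its LYL1 KO mean, the highest such value in the set, and its LYL1 KO mean was itself 73.8% of WT. For Egr2 neither the SCL KO change (edgeR adjusted p = 0.062) nor the interaction (edgeR adjusted p = 0.144) passed the test.

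**Figure D2:**
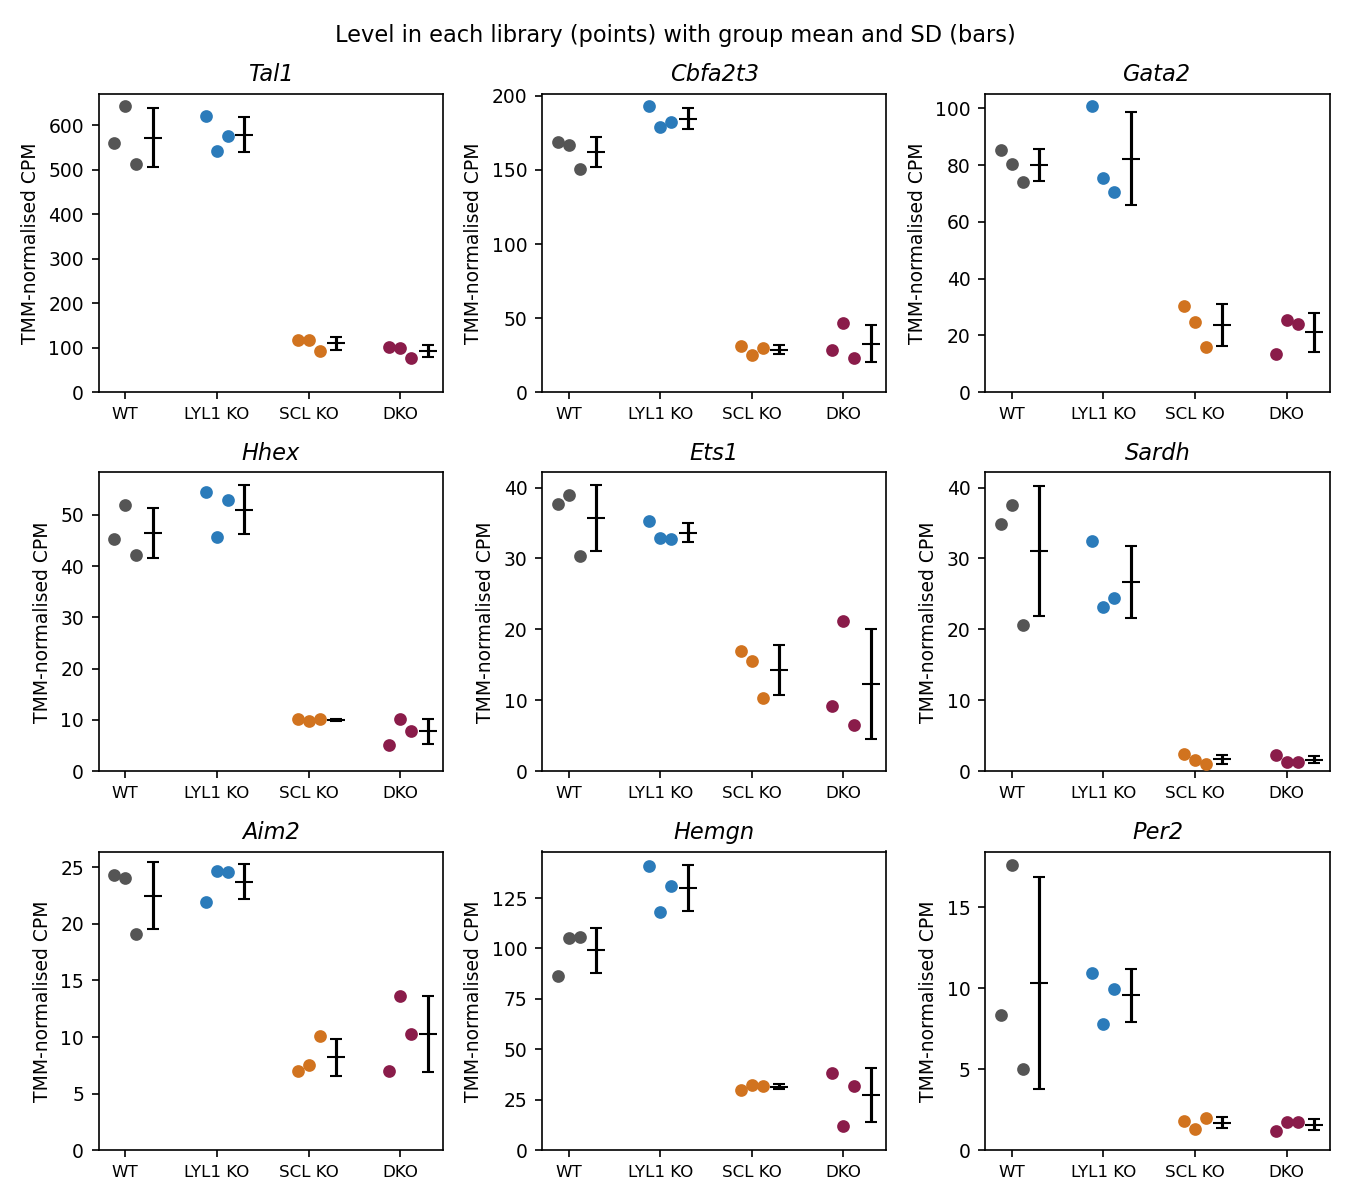
TMM-normalised CPM (linear axes from 0) of 9 members in each of the 12 libraries, with points for libraries and a bar for the group mean ± SD (n = 3). For each gene the SCL KO and DKO points lie below all WT and LYL1 KO points, for example Tal1 at 77.7 to 118 against 513 to 643 CPM.

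Genes of the cytoskeleton, vessels, growth factors and mast cells followed. Tubb2a, a beta-tubulin isotype, had 454, 447 and 317 CPM in WT, 724, 537 and 445 in LYL1 KO, 138, 125 and 109 in SCL KO, and 77.6, 61.2 and 140 in DKO. LYL1 KO reached above WT but overlapped it, and the libraries lacking Scl formed a lower group. Reads shared with the near-identical Tubb2b are uncertain. Per length it was the most abundant member, at 256 CPM per kb in WT, ahead of Tal1 (131), Lgals3bp (120) and Pecam1 (118).

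Pecam1, an adhesion molecule of endothelium and platelets, was at 781, 796 and 625 CPM in WT, 958, 762 and 759 in LYL1 KO, 386, 338 and 254 in SCL KO, and 260, 231 and 167 in DKO. The DKO libraries lay mostly below SCL KO with 1 overlapping, and the DKO/SCL KO ratio of 0.672 was barely inside the limit. Pdgfa, a growth factor of the platelet-derived family, was at 62, 49.8 and 38.2 CPM in WT, 57.3, 45.9 and 33.1 in LYL1 KO, 16.5, 16.5 and 14.4 in SCL KO, and 9.71, 11.1 and 15.9 in DKO. Here too the 2 groups lacking Scl overlapped and stayed below the others.

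Cpa3, a mast cell protease, owed its place to 1 library. Its WT values were 6.99, 5.93 and 27.1 CPM. LYL1 KO had 10, 7.83 and 9.06, SCL KO 6.54, 5.07 and 5.84, and DKO 3.18, 7.14 and 5.15. WT 3 was far above every other library, and without it the log2 change in SCL KO against WT was -0.15 in place of -1.20. Without Cpa3 itself, the other 9 tested mast cell and basophil genes together spanned 30.8 to 139 CPM in WT, 29.6 to 54.9 in LYL1 KO, 24.1 to 26.3 in SCL KO and 140.0 to 565 in DKO. Nearly all of the DKO sum was Gzmb, a granzyme of mast and cytotoxic cells (named after its value was seen, mean 268 CPM in DKO). Without it too, the other 8 spanned 30.8 to 138 CPM in WT, 29.3 to 54.8 in LYL1 KO, 22.4 to 25.9 in SCL KO and 25.1 to 36.3 in DKO. Their part in the Cpa3 values was not tested.

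A signalling group held enzymes and regulators of the Ras and kinase pathways. Nf1, the Ras GTPase-activating protein neurofibromin, was at 57.6, 51.2 and 39 CPM in WT, 42.3, 41.8 and 44.3 in LYL1 KO, 14.5, 16.2 and 17.8 in SCL KO, and 16.6, 24.7 and 26.1 in DKO. Both groups lacking Scl were below both others, with DKO reaching higher than SCL KO. Rasgrp3, an activator of Ras and Rap, had 8.83, 9.02 and 7.47 CPM in WT, 13.3, 7.57 and 6.89 in LYL1 KO, 2.71, 2.82 and 2.8 in SCL KO, and 4.19, 4.58 and 3.53 in DKO, where all DKO libraries were above all SCL KO libraries. Dusp4, a phosphatase of MAP kinases, had high values in replicate 3: 41.2, 50.1 and 81.1 CPM in WT, 62.7, 67.8 and 76.1 in LYL1 KO, 18.3, 14.6 and 46.1 in SCL KO, and 6.53, 16.5 and 45.2 in DKO. That library was the highest of each of the 4 groups, and WT 1 lay below SCL KO 3.

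The remaining members of this group were Ptpn3, a tyrosine phosphatase, at 25.8 ± 0.993 CPM in WT, 32 ± 11.1 in LYL1 KO, 12.6 ± 2.11 in SCL KO and 16.2 ± 6.15 in DKO, and Ikbke, a kinase of the interferon and NF-kappa-B pathways, at 69 ± 17.4 CPM in WT and 32.1 ± 2.45 in SCL KO. For Ikbke, LYL1 KO was at 62.3 ± 3.41 CPM and DKO at 30.7 ± 3.07, so both groups lacking Scl lay below both others. Icosl, the ligand of the T cell costimulator Icos, was at 3.46, 4.53 and 10.9 CPM in WT, 7.33, 6.4 and 8.42 in LYL1 KO, 2.4, 1.68 and 1.75 in SCL KO, and 2.21, 2.46 and 1.44 in DKO. Its WT 3 library was above the other two, the opposite of most members.

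Genes of innate immunity formed another group. Irf1, a transcription factor induced by interferon, was at 34.1, 26 and 22.6 CPM in WT, 26.2, 25.5 and 31.9 in LYL1 KO, 10.5, 10.4 and 9.27 in SCL KO, and 12.6, 14.8 and 17.8 in DKO. Every DKO library was above every SCL KO library, and the ratio lay at the upper limit of 1.5. Aim2, a sensor of cytosolic DNA, had 24.3, 24.1 and 19.1 CPM in WT, 22, 24.7 and 24.5 in LYL1 KO, 7, 7.56 and 10.1 in SCL KO, and 6.97, 13.6 and 10.2 in DKO. For Aim2 the 2 groups lacking Scl overlapped. Icam1, an adhesion molecule bound by leukocyte integrins, was at 28.2, 22.6 and 20.3 CPM in WT, 22, 24 and 19.5 in LYL1 KO, 10.3, 9.99 and 9.41 in SCL KO, and 7.23, 8.07 and 8.4 in DKO, all DKO libraries below all SCL KO ones.

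Lgals3bp, a secreted galectin-binding glycoprotein, was the most abundant of this group, at 342 ± 70.3 CPM in WT, 402 ± 13.1 in LYL1 KO, 166 ± 14 in SCL KO and 141 ± 16.4 in DKO. Oas3 and Oasl2, of the oligoadenylate synthetase family induced by interferon, and H2-Q6, a class I histocompatibility gene of the Q cluster, were low and spread. H2-Q6 had 7.41, 3.7 and 14.3 CPM in WT, 7.94, 7.53 and 7.57 in LYL1 KO, 3.6, 3.5 and 3.74 in SCL KO and 4.45, 4.18 and 6.02 in DKO. Only WT 2 came down to the level of SCL KO, and reads of H2-Q6 can be shared with other Q genes. Oas3 had 12.7, 6.84 and 7.33 CPM in WT, 4.78, 6.59 and 9.61 in LYL1 KO, 2.28, 4.74 and 4.13 in SCL KO and 3.25, 4.15 and 4.96 in DKO. Oasl2 had 18.4, 8.06 and 7.95 CPM in WT, 7.94, 8.4 and 13 in LYL1 KO, 4.56, 6.28 and 4.51 in SCL KO and 4.19, 6.81 and 7.65 in DKO. WT 1 was the high library for both, and for Oas3 LYL1 KO 1 came down into the range of DKO. Clec4e, a C-type lectin receptor of myeloid cells, was at 21.8 ± 5.24 CPM in WT, 18.5 ± 2.27 in LYL1 KO, 10.8 ± 2 in SCL KO and 10.9 ± 2.13 in DKO.

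The 16 macrophage and myeloid marker genes held no member, and their median log2 change in SCL KO against WT was -0.45, beside 0.004 over all genes. None of them was called in that comparison, and 5 (31.2%, beside 17.9% of all genes) were called lower in DKO against LYL1 KO. Their summed level was 5101 to 8813 CPM in WT, 6226 to 9674 in LYL1 KO, 4456 to 6278 in SCL KO and 4057 to 4990 in DKO. The ranges of WT and SCL KO overlapped, while that of DKO lay below that of LYL1 KO. The part of these genes in the values of the innate immune members was not tested.

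Membrane, trafficking and cytoskeletal proteins came next. Mtss1l, an actin-binding membrane-bending protein, had 79.9, 72.1 and 57.3 CPM in WT, 80.8, 67 and 56.6 in LYL1 KO, 18, 17.7 and 6.44 in SCL KO, and 36.6, 5.78 and 12 in DKO. WT and LYL1 KO matched closely, while the DKO libraries differed widely among themselves. Frmd4a, a scaffold of cell junctions, was at 59.3, 62.5 and 68.8 CPM in WT, 84, 72.9 and 76.5 in LYL1 KO, 19.2, 21.2 and 27.3 in SCL KO, and 22.5, 26.1 and 43 in DKO. All LYL1 KO libraries were above WT for Frmd4a. Grina, a calcium-handling membrane protein, was at 131, 115 and 93.1 CPM in WT, 151, 135 and 117 in LYL1 KO, 38.7, 39.9 and 41.7 in SCL KO, and 47.3, 57.9 and 59.1 in DKO, again with all DKO libraries above SCL KO.

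Tmem9, a lysosomal membrane protein, was at 29.4, 31.2 and 33.7 CPM in WT, 41.1, 41.2 and 43.7 in LYL1 KO, 14, 12.3 and 12.1 in SCL KO, and 10, 9.2 and 13.1 in DKO. LYL1 KO was above WT in every library, and DKO was on average below SCL KO. Dop1a, of the Dopey family of Golgi and endosome proteins, ran the other way, with 60.4, 69 and 58.3 CPM in WT, 58.4, 53.3 and 56.3 in LYL1 KO, 26.6, 25.2 and 27.5 in SCL KO, and 33.4, 35.7 and 30.7 in DKO. Pacsin2, a membrane-shaping protein of platelet precursors, was at 228 ± 33.3 CPM in WT, 252 ± 40.2 in LYL1 KO, 109 ± 20.3 in SCL KO and 98 ± 13.8 in DKO.

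The rest of this group was lower in level. Palm, a lipid-anchored membrane protein, had 17.2, 12.5 and 9.59 CPM in WT and 6.23, 7.81 and 5.18 in SCL KO, with 17.5, 14.2 and 10.8 in LYL1 KO and 4.19, 4.85 and 4.53 in DKO. All DKO libraries of Palm lay below all SCL KO libraries. Mtus1, a microtubule-associated protein, was at 14 ± 3.25 CPM in WT, 13.7 ± 1.71 in LYL1 KO, 6.12 ± 1.57 in SCL KO and 8.65 ± 1.14 in DKO. Tmem170, a membrane protein, was at 10.1 ± 0.544, 7.79 ± 0.507, 4.88 ± 1.61 and 4.85 ± 1.68 CPM in the same order, with all LYL1 KO libraries below WT. Tbc1d12, a Rab GTPase-activating domain protein, stood nearest to both the WT floor and the SCL KO limit. It had 5.08, 6.01 and 4.56 CPM in WT, 2.13, 2.57 and 3.08 in SCL KO and 1.98, 2.19 and 6.9 in DKO, where DKO 3 was above every WT library.

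Metabolic enzymes contributed the lowest member. Sardh, the mitochondrial sarcosine dehydrogenase, was at 34.9, 37.6 and 20.6 CPM in WT, 32.5, 23.1 and 24.5 in LYL1 KO, 2.4, 1.53 and 1.01 in SCL KO, and 2.24, 1.29 and 1.34 in DKO. Every library lacking Scl was far below every library that carries it, and what remained was 5.31% of WT in SCL KO and 5.24% in DKO. The log2 change was -4.24 ± 0.35 with Lyl1 and -4.03 ± 0.34 without it. Rtn4ip1, a mitochondrial oxidoreductase, was at 29, 24.6 and 15.8 CPM in WT, 23.5, 16.4 and 12.7 in LYL1 KO, 7.62, 9.49 and 6.82 in SCL KO, and 6.3, 8.17 and 6.21 in DKO. WT 3 and LYL1 KO 3 were the low libraries of their groups for Rtn4ip1.

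Chsy3, a chondroitin synthase, was at 13.9 ± 0.769 CPM in WT, 10.8 ± 0.268 in LYL1 KO, 6.28 ± 0.645 in SCL KO and 7.37 ± 1.17 in DKO. B3gnt7, a glycosyltransferase, had 10.3, 7.15 and 1.6 CPM in WT, 6.48, 3.46 and 3.4 in LYL1 KO, 3.91, 1.68 and 2.69 in SCL KO, and 2.41, 3.79 and 3.68 in DKO, and WT 3 lay below all SCL KO libraries. The last genes overlapped neither between SCL KO and WT nor between DKO and LYL1 KO. Dnaaf5, a factor of ciliary dynein assembly, was at 153 ± 15.7 CPM in WT, 178 ± 16.9 in LYL1 KO, 71.5 ± 12.4 in SCL KO and 54.8 ± 26.2 in DKO. Fam110b, a centrosome-associated protein, was at 52 ± 4.92, 62.3 ± 10.6, 24.6 ± 7.21 and 20.3 ± 6.75 CPM in that order. Spa17, a sperm surface and ciliary protein, was at 7.03 ± 1.49 CPM in WT, 7.2 ± 0.843 in LYL1 KO, 3.34 ± 0.408 in SCL KO and 2.64 ± 0.92 in DKO. Fbxl2, an F-box protein, was at 8.12 ± 2.83, 5.89 ± 1.3, 3.88 ± 0.561 and 2.78 ± 0.757 CPM. Genes given here outside the stated rule for named genes were named after their values were seen.

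The level left without Scl can be set side by side for both Lyl1 backgrounds. Over the 48 genes the DKO mean was 6.1% to 98.8% of the LYL1 KO mean (median 37.7%), beside 5.31% to 49.7% of WT for SCL KO. The DKO/LYL1 KO ratio was, over all 49, the lower of the 2 for 24 genes and the higher for 25, and it was at most 0.5 for 33. The log2 interaction (the DKO change against LYL1 KO minus the SCL KO change against WT) spanned -0.90 to 1.00 over the 48 with a median of 0.03, beside 0.04 over all genes. The limits on LYL1 KO/WT and DKO/SCL KO bound this value, so it is a description of the choice. The test of it called 9.38% of all genes and 3 members, among them Tmem9 and Dop1a, both near the threshold.

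**Figure D3:**
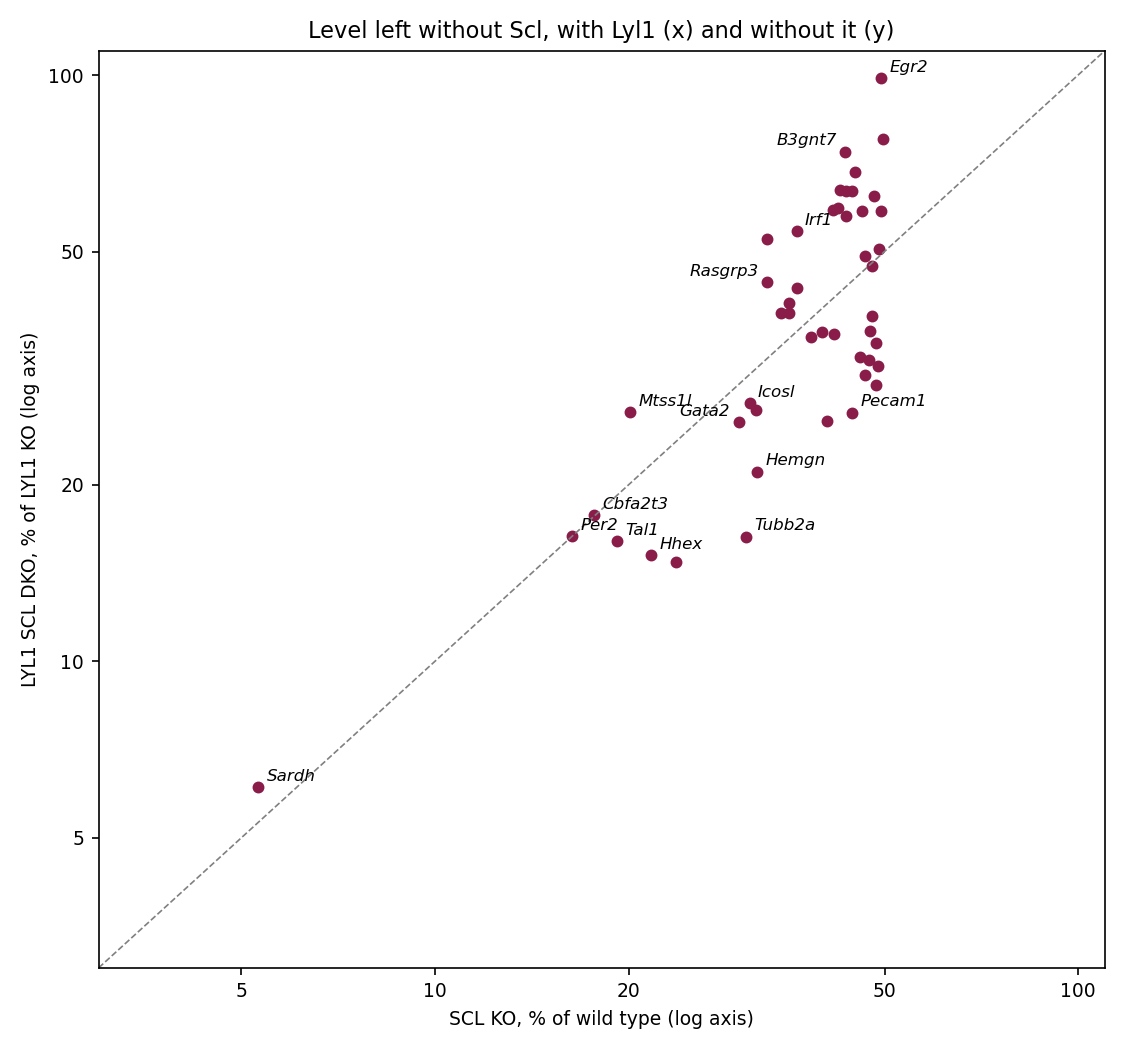
Each point is 1 of 48 genes: the x axis is the SCL KO mean as % of WT and the y axis the DKO mean as % of LYL1 KO, both log axes, with the dashed line where they are equal. Sardh (5.31%, 6.1%) lies lowest, and Egr2 (49.4%, 98.8%) lies farthest above the line.

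Among the known partners of Scl few moved as the members did. Of 22 tested genes of the Scl complex and its partners, 3 were members (Tal1, Cbfa2t3, Gata2). The same 3 fell in SCL KO against WT (13.6%, beside 2.73% of all genes), while Lmo2 and Ssbp2 rose. Tal1 is the targeted gene and all 3 were chosen by their SCL KO/WT ratio, so nothing is read from that share. Lmo2, the LIM protein that bridges Scl and GATA factors, had a log2 change of 0.86 ± 0.11 (edgeR adjusted p = 0.00118), and Ssbp2, a stabiliser of the adaptor Ldb1, one of 0.62 ± 0.12 (edgeR adjusted p = 0.00861). The list's median log2 change was 0.03, beside 0.004 over all genes. Gata1 went from 570.6 CPM in WT to 404.3 in SCL KO and 157.7 in DKO. Its SCL KO change of -0.50 ± 0.25 did not pass the test (edgeR adjusted p = 0.33). It is no member, since its SCL KO/WT ratio of 0.709 and its DKO/SCL KO ratio of 0.39 were both outside the limits.

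Of 15 tested genes known from earlier work as regulated by Scl, 4 were members, among them Cbfa2t3, Gata2 and Hhex. In SCL KO 6 fell (40%, beside 2.73% of all genes, median log2 change -0.50). The members in this list were chosen to be low in SCL KO, so part of that share was fixed by the choice. In DKO against LYL1 KO 9 fell (60%, beside 17.9%) and 4 rose (median -1.97). The limits also bound the members' DKO/LYL1 KO ratio, so part of this share was fixed by the choice too. The same holds for each list that follows with a member in it. Of the red cell surface and membrane skeleton list (22 tested) 6 fell in SCL KO (27.3%) and 1 was a member. None of 8 globins, 15 heme genes or 44 megakaryocyte and platelet genes was a member. Of the last list 3 (6.82%, beside 2.73% of all genes) fell in SCL KO and 36 (81.8%, beside 17.9%) in DKO against LYL1 KO, with median log2 changes of -0.24 and -1.17. Their summed level was 77710 to 108100 CPM in SCL KO and 32440 to 59540 in DKO. Of 24 stem and progenitor genes Hhex was the member, and of 25 endothelial genes it was Pecam1, with 3 genes fallen in SCL KO in each list (12.5% and 12%). The 12 neutrophil granule genes held no member. Without Pecam1 itself, the other 24 tested endothelial genes summed to 758.6 to 831.2 CPM in WT, 900.8 to 935.4 in LYL1 KO, 681.3 to 730 in SCL KO and 519.3 to 591.9 in DKO. Their part in the Pecam1 values was not tested. These lists were drawn up with earlier results of these data known.

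The spread between replicates was also compared, though not at matched levels. The members' median coefficient of variation was 17.1% in WT, 12.5% in LYL1 KO, 17.1% in SCL KO and 26.5% in DKO. Over all genes of at least 5 CPM it was 11.7%, 8%, 11.4% and 14.1%. The members were chosen on means of these same libraries, which a single extreme library can move, so nothing is read from the difference. The widest were Cpa3 in WT (89.4%), B3gnt7 in LYL1 KO (39.5%), Dusp4 in SCL KO (65.3%) and Mtss1l in DKO (89.9%). Single libraries leaned one way: WT 3 was the lowest of its group for 36 members, LYL1 KO 1 the highest for 32, and SCL KO 3 the lowest for 28. The same counts over all genes are not given, so this lean is not read as a trait of the members. Summed over the members, WT gave 4557, 4543 and 3772 CPM, LYL1 KO 5346, 4474 and 4413, SCL KO 1684, 1586 and 1390, and DKO 1378, 1267 and 1333.

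The ratios were also computed within each side of component 2, as a description, since the members were chosen on these same libraries. B3gnt7 was the member whose SCL KO/WT ratio lay on opposite sides of 1, with a ratio of 0.320 on the side of replicates 1 and 2 and 1.68 on that of replicate 3. A ratio of at most 0.5 was met by 41 genes on the first side and 38 on the other, and by 30 on both. DKO/SCL KO was within its limits for 44 and 33 genes. All limits that could be computed were met on both sides by 15 genes. With only replicates 1 and 2 of WT, SCL KO and DKO, 59 genes met the limits, 32 of them members.

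When any 1 library was left out, between 44 and 66 genes met the limits. In all 12 such sets the limits were met by 12 genes: Aim2, Cbfa2t3, Chsy3, Dop1a, Gata2, Grina, Hemgn, Icam1, Per2, Sardh, Tal1 and Tmem9. Another 35 met them in 6 to 11 sets, Irf1 in 5 and Egr2 in 3. Under narrower limits (SCL KO/WT at most 0.4, the other ratios nearer to 1) 13 of the 49 remained, and 7 genes met these and all 12 leave-one-out sets: Aim2, Cbfa2t3, Gata2, Hemgn, Per2, Sardh and Tal1.

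**Figure D4:**
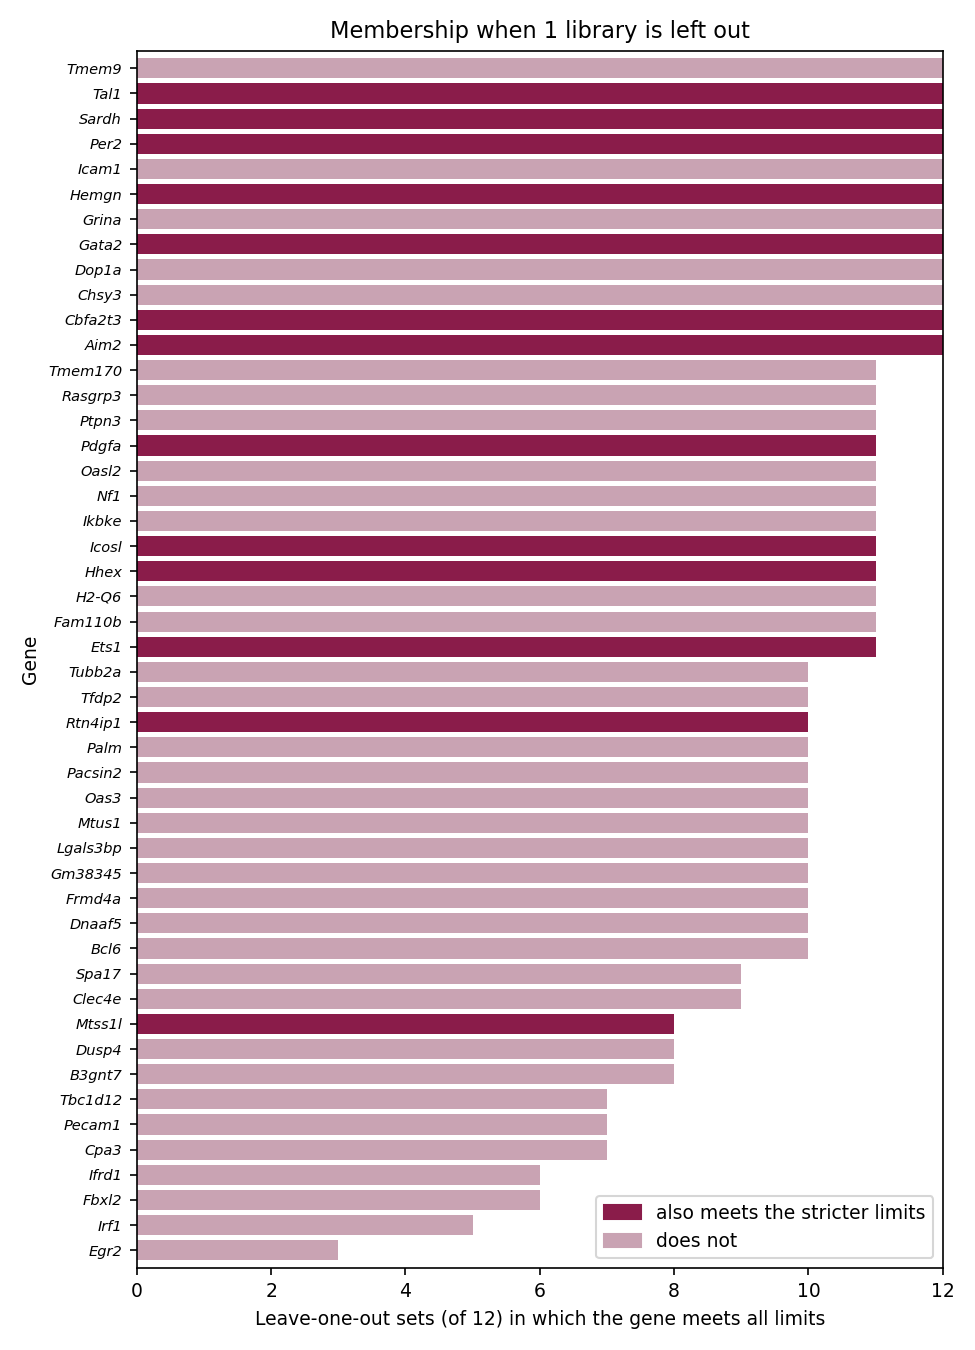
Number of the 12 leave-one-out sets (x axis) in which each of 48 genes (y axis) meets all limits, in dark bars for the 13 genes that also meet the narrower limits. Egr2 (3) and Irf1 (5) have the shortest bars, and 12 genes reach 12.

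The genes nearest each limit were as follows. At the WT floor Tbc1d12 (5.22 CPM) and Gm38345 (6.21) lay inside, and Gbp3 (4.995) and Gm16973 (4.988) outside. At the SCL KO/WT limit Tbc1d12 (0.497) and Egr2 (0.494) were inside, and Kcng1 (0.502) and Lgals9 (0.503) outside. For LYL1 KO/WT, Cpa3 (0.672) and B3gnt7 (0.700) were inside the lower limit with Afap1l1 (0.623) and Ear2 (0.491) outside, and Tubb2a (1.40) inside the upper with Gadd45b (1.52) and Pdzk1ip1 (1.52) outside. For DKO/SCL KO, Ifrd1 (0.672) and Pecam1 (0.672) were inside the lower limit with Sv2a (0.660) and Pkn3 (0.635) outside, and Irf1 (1.5) and Rasgrp3 (1.48) inside the upper with Spon2 (1.51) and F10 (1.52) outside.

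Apart from Tal1 itself, no member lay within 10 Mb of either targeted gene. This covers members only. Genes just outside the limits were left out of these counts, and how near they lie to the targeted genes is not given. Pdzk1ip1, for example, missed only the LYL1 KO/WT limit (1.52), with SCL KO/WT at 0.477 and DKO/SCL KO at 0.8245. Within 10 Mb of Tal1, 172 genes were tested and no other member lay there, and the nearest on chromosome 4 was Ptpn3 at 57.9 Mb. Within 10 Mb of Lyl1 146 genes were tested, again with no member, and the nearest of 5 on chromosome 8 was Mtss1l at 26 Mb. Members were 49 of the 15399 genes tested, so windows of this size can easily hold none, and nothing is read from it. Chromosomes 1 and 9 held 6 members each, of 979 and 873 genes tested (0.613% and 0.687%). Chromosomes 7, 14 and X held none, of 1201, 491 and 558 genes tested. These counts are small and were not tested, so no clustering is read from them.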

How the data were processed

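The 12 libraries were mapped to 4 groups of 3, with replicate numbers, from the labels. Per the labels' protocols, RNA was extracted with Trizol and a column kit and made into stranded mRNA libraries. The values deposited by the authors are unnormalised read counts, 1 column a library. The genome build GRCm38, the aligner STAR 2.5.2b and the counter featureCounts (Subread 1.5.2) are named per the submitters' processing notes. Per the file headers, counting was strand-specific (setting 2), with Ensembl release 87 gene models and without reads that map to several places. How reads were trimmed is not stated in the labels or headers.

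The analysis ran in edgeR 4.0.16 (R 4.3.3), with its filter at the default settings (a minimum count of 10 and total of 15), TMM factors and robust quasi-likelihood F-tests. A single fit held the 12 libraries and the term group. P-values were Benjamini-Hochberg adjusted over all 15399 genes (threshold 0.05). The common biological coefficient of variation was 0.234. Symbols were matched for 49326 of 49671 genes. The steps were tested on simulated data. Members were found on group means of normalised CPM. The members, the 12 gene lists and the motifs were chosen with earlier results of these data known. The members get no test of their own, since the choice used all 4 group means. Named were Tal1 and Lyl1, the 20 members with the lowest SCL KO/wild type ratio, the 10 with the highest wild-type mean, members in a gene list, genes nearest each limit and members whose interaction was called. Alternatives were DESeq2 1.42.0 (size factors and Wald test), limma 3.58.1's voom, library totals, group medians, other filters and limits, the replicate number as a block and each library left out. Some items, 1 of the 49 members among them, are not reported here. Same-numbered SCL KO and DKO libraries deviated together (correlations 0.216, 0.15 and 0.441 over genes), which comes from the data and from no label, so the blocked count of members is given for that comparison: the block gave 3722 calls in place of 2947. No 2 libraries of the same group agreed within sampling noise. Total counts per library give a precision limit of 3 counts, 0.0936 to 0.131 CPM, a limit for counting error only, because reads carry no molecular identifiers.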

Additional observations from a re-analysis of the deposited data

Results flagged for a closer look

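For Tmem9 and Dop1a the change without Scl differed between the Lyl1 backgrounds by the interaction test over all genes (edgeR quasi-likelihood, adjusted p under 0.05), which called 9.38% of all genes tested. The limits that chose the genes bound this value. For Tmem9 the log2 change was larger without Lyl1, with an interaction of -0.66 (adjusted p = 0.0487). For Dop1a the change was smaller without Lyl1, with an interaction of 0.49 (adjusted p = 0.0412). All LYL1 KO libraries lay above WT for Tmem9, and all DKO libraries lay above SCL KO for Dop1a. Both calls were near the threshold: over 19 alternatives the Tmem9 call was lost in 14 (adjusted p 0.00815 to 0.139) and the Dop1a call in 12 (0.0191 to 0.121), with no change of sign in either. The causes were not tested.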

How the results depend on the processing

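Membership depended on the limits and on single libraries. With a WT floor of 1 CPM 100 genes met the rule, and under the narrower limits 13 did. The count was 39 to 50 under the other settings of scaling, averaging, filter and floor, and 44 to 66 with 1 library left out. A similar count hid different genes: with library totals in place of TMM 41 genes met the rule, 21 of them members, and with group medians 41 and 27. Library totals moved the median log2 change of all genes by 0.11 for SCL KO against WT. For DKO against SCL KO they moved it by 0.3. The TMM factors were 0.8937 to 0.9565 in WT, 0.9498 to 1.08 in SCL KO and 1.141 to 1.303 in DKO.

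Over all genes, LYL1 KO against WT had 11 calls (5 to 41 with 1 library left out, 41 without WT 3, and 103 with DESeq2's Wald test). SCL KO against WT had 774 calls (388 to 1063 with 1 library left out, 1329 with DESeq2's Wald test). DKO against SCL KO had 1645 to 3222 with 1 library left out, DKO against LYL1 KO 3884 to 5630, and the interaction 671 to 1925, with 2261 under DESeq2's Wald test. With a term for the side of component 2, added after seeing the data, SCL KO against WT had 1631 calls and the interaction 3199. Replicate numbers did not pair the libraries of all groups: 10 of 18 same-numbered pairs had a correlation of deviations over 0.1 (lowest -0.0432), and 7 of 12 libraries correlated best with their own number. With the replicate block SCL KO against WT had 1226 calls (42 members in place of 37), DKO against LYL1 KO 6043 (42 in place of 39) and the interaction 2100 (5 in place of 3). The cause of these differences was not tested. Depth limits few members, since the lowest SCL KO mean was above 1 CPM, many times the level of 3 counts.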
